A study of Arabidopsis thaliana with 18 samples.

Results

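The genes described here are the 100 most abundant transcripts among those that the ATH1 probe table names only by a locus code, in Arabidopsis thaliana accession Mt-0. A locus code gives a gene's chromosome and its order along it, and says nothing of its product. Members were chosen by their measured level. The 11933 probe sets with exactly 1 gene and a locus code as its symbol were ranked by mean log2(signal + 16) over all 18 arrays, the first 100 were kept, and AT2G34250 and AT5G07340 were left out by rule. Those 2 would have ranked 151 and 1622, so leaving them out did not alter the 100. The whole table holds 22810 probe sets, of which 64 are controls.

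The study hybridised total RNA of Mt-0 to 18 arrays. Silwet, a surfactant used as a carrier, was given alone at 0.02% in 9 of them, and SA at 0.30 mM in the same carrier in the other 9, so all samples share silwet. SA is read here as salicylic acid. Serial numbers in the titles run in threes, each holding replicates 1, 2 and 3, which gives 3 serial sets per treatment and 6 groups of 3 arrays. Sets were numbered in this order within each treatment. That SA and silwet sets of the same number belong together is assumed here and not stated in the labels. How the sets differ is not stated in the labels, which also do not give the tissue, the age of the plants or the time of harvest. Separate cultures are not mentioned either, so each p-value reflects only array-to-array spread, part of which may be technical.

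Salicylic acid is a plant hormone made during defence against pathogens, and many defence transcripts rise when it is applied. The most abundant messenger RNAs of a green plant cell serve mainly photosynthesis, protein synthesis and general metabolism. Array brightness depends on a probe set's own sequence as well as on the amount of RNA, so signals of different genes are not amounts that can be set against each other.

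All 100 members matched the RefSeq gene table (TAIR10.1), all as protein-coding genes at 100 distinct loci. That table describes 5 of them through a synonym and gives the other 95 a clone name or nothing, so their products are not given here. AT4G01150 and AT1G52220 are CURT1A and CURT1C, of a family that curves the thylakoid membrane, the site of the light reactions of photosynthesis. AT1G74470 is a geranylgeranyl reductase, an enzyme that makes the phytyl chain of chlorophyll and tocopherols. AT1G54410 is the dehydrin HIRD11, of a family of soluble proteins that accumulate under drought and cold. AT1G53210 is NCL, listed as a Na+/Ca2+ exchanger.

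By locus code, 23 members lie on chromosome 1, 18 on chromosome 2, 27 on chromosome 3, 9 on chromosome 4 and 23 on chromosome 5. Of the 11933 locus-code probe sets, 20.5% lie on chromosome 3 and 14.4% on chromosome 4, a description with no test. Among the members, AT2G27710 and AT2G27720 are next to each other in the order of protein-coding genes, and no other pair is.

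The ranking itself used the mean level, so the levels below are a description. Mean log2(signal + 16) of the members ran from 10.14 to 12.02 with a median of 10.57. They held brightness ranks 4 to 453 among all Arabidopsis probe sets, and 353 probe sets that are no members lie within those ranks or above. AT2G25510 was the brightest member at a median signal of 4090.5, with a lowest value of 3269.6 and a highest of 7733. AT1G13930 came next with a median of 3536, a lowest value of 1952 and a highest of 7059. AT4G16190 was the third at a mean log2 of 11.54, followed by AT4G01150 (CURT1A) at 11.51. After these came AT5G20290, AT2G45180, AT2G26500, AT2G41090, AT1G09310, AT1G51400, AT2G43030 and AT4G30650, with means between 11.40 and 11.10.

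At the lower limit of the ranking the values were close together. The last 3 inside were AT5G47930 at 10.152, AT2G46600 at 10.144 and AT5G61170 at 10.141 on the mean log2 scale. The first 3 outside were AT1G19960 at 10.141, AT4G10300 at 10.135 and AT3G16370 at 10.132. Ranking by mean signal kept 96 of the 100, by the median of log2 values 94, and after quantile normalization 99.

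As green leaf, root, seed, flower and guard cell markers, 22 genes were listed, and a single-gene probe set names 5 of them. RCA, the activase of the carbon-fixing enzyme Rubisco, had a signal of 1612 at the lowest and 4329 at the highest. PYK10, a beta-glucosidase abundant in roots, ran from 32.4 to 228. AT5G66390 of the root list and AT5G46940 and AT3G28750 of the flower and pollen list did not pass 17.6 on any array. No marker of the seed or guard cell lists was named. In such bulk RNA, fewer cells of a type and less RNA per cell cannot be told apart.

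The members moved together from array to array, and a single array stood apart. On SA replicate 2 of set 3, 81 of 100 members had their highest value of all 18 arrays, against 14% of all 13647 tested probe sets and 67.4% of the 353 other bright probe sets. The members' median deviation from their own means was 0.58 on the log2 scale there and lay between -0.32 and 0.25 on the other 17 arrays. The 353 other bright probe sets had a median deviation of 0.61 on that array, so the shift was shared by bright probe sets that are no members. Members took 7.18% of the array's total signal, against 4.56% to 6.13% elsewhere. After quantile normalization, which gives every array the same distribution of values, 13 members were highest there. The like share of other probe sets was not computed on that scaling. That array also had the lowest median signal, 27.5, against 29.6 to 37.3 on the others. Its log2 ratio of 3′ to 5′ GAPDH control signal was 0.92, against -0.14 to 0.77 elsewhere, while those of actin at -0.29 and ubiquitin at 1.53 lay within the range of the other arrays. The part of scaling or RNA quality in the shift was not tested.

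**Figure D1:**
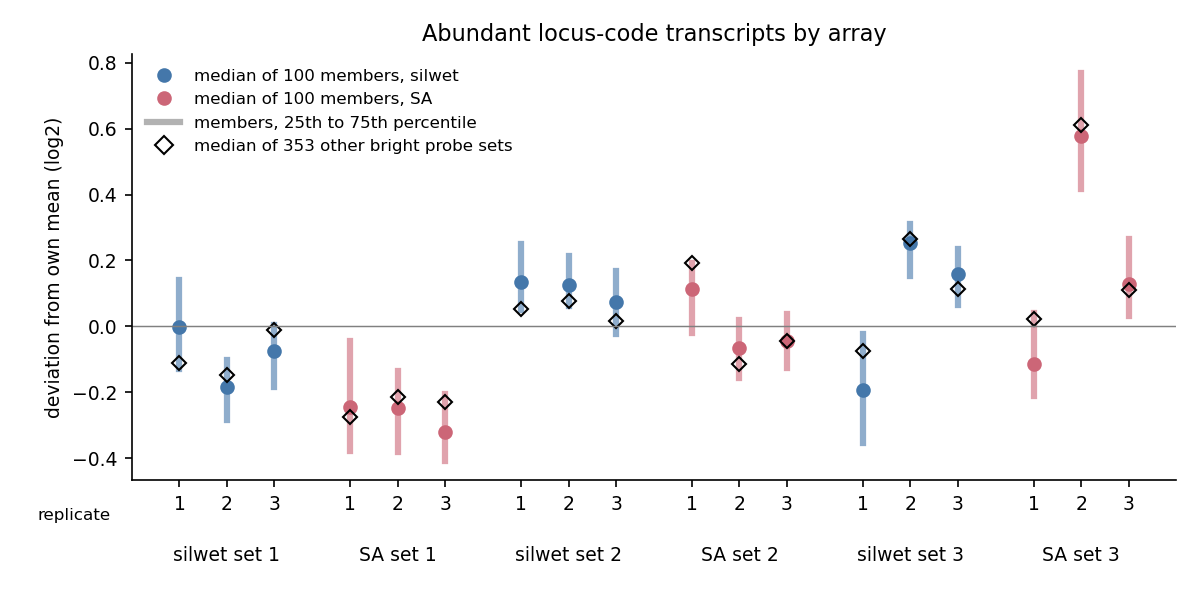
Deviation of each member from its own mean over 18 arrays, on the log2 scale, by array. Filled points are the median of the 100 members, bars run from the 25th to the 75th percentile, and open diamonds are the median of the 353 other bright probe sets. SA replicate 2 of set 3 lies highest at 0.58, and the 3 SA arrays of set 1 lie between -0.32 and -0.24.

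At the other end stood the SA arrays of set 1. Of the 100 members, 61 had their lowest value on one of those 3 arrays, against 38% of all tested probe sets and 58.6% of the 353 other bright probe sets. After quantile normalization 59 members did, and the like shares of other probe sets were not computed on that scaling. The members' median deviation on these arrays ran from -0.32 to -0.24, and that of the other bright probe sets from -0.27 to -0.21, so bright probe sets that are no members were low there too. The log2 ratio of 3′ to 5′ ubiquitin control signal was lowest on exactly these 3 arrays, at 1.12, 0.743 and 0.706, against 1.15 to 1.81 on the other 15, and its part in the low values was not tested.

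All 3 SA arrays of set 1 were below each of the other 15 arrays in 21 members (8.93% of all tested probe sets) and above them in 1 (8.83%). After quantile normalization these counts were 12 (8.76%) and 3 (9.06%). Against silwet of the same set, all 3 SA arrays lay below all 3 silwet arrays in 33 members (17.9% of all tested probe sets) and above in 1 (12.3%). As a description of 4950 pairs of members, the correlation over 18 arrays had a median of 0.63, and 4444 pairs were above 0. Once each array's median over the members was taken off, the median correlation was 0.00 and 2459 pairs were above 0. Like values for pairs of other bright probe sets are not given, so these correlations are not shown to be particular to the members.

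Pooled over sets, SA minus silwet moved no member beyond the variation among arrays. Of the 100, 0 were called at an adjusted p under 0.05 (limma, Benjamini-Hochberg over 13647 probe sets), where 0% of all tested probe sets were. At an unadjusted p under 0.05 there were 0 members, beside 218 of the 13647 tested probe sets. The members' median difference was -0.04 on the log2 scale, beside -0.03 over all tested probe sets, and 81 members were below 0. The differences ran from -0.31 ± 0.20 (SE) in AT5G62350 to 0.10 in AT5G21090. AT3G62550 had -0.28 ± 0.26 and AT3G50685 had -0.28 ± 0.23. Without SA replicate 2 of set 3, the members' pooled median was -0.11 and 96 were below 0, again with 0 called.

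Within set 1, 5 members differed between SA and silwet: AT5G62350, AT1G29670, AT3G62550 and AT4G34950 fell and AT5G55450 rose. These 5 of 100 compare with 12.8% of all tested probe sets called, 6.8% higher and 6.05% lower in SA. After quantile normalization 12 members were called, 11 lower and 1 higher, beside 13.6% of all tested probe sets, 5.72% lower and 7.87% higher. The members' median difference was -0.14 beside -0.11 over all tested probe sets, with 84 members below 0. The count depended on single arrays. In set 1, it was 2 (7.38% of all tested probe sets) with silwet replicate 2 left out and 3 (6.98%) with SA replicate 3 left out. In set 3, leaving out SA replicate 1 gave 9 calls (13.8%) and leaving out SA replicate 2 gave 11 (15.6%). With the 9 same-numbered pairs of SA and silwet arrays as a block, 17 members were called, 16 lower and 1 higher, beside 27.9% of all tested probe sets, 16% lower and 12% higher, and the 5 were among them.

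AT5G62350 had signals of 1686, 1809 and 1995 in silwet of set 1, and of 782, 1102 and 1052 in SA of set 1. Every SA array lay below every silwet array, and no array of sets 2 and 3 was as low as those 3. The difference was -0.90 ± 0.16 (SE, n = 3 and 3; limma adjusted p = 0.00135), and it was past the threshold under each of the 29 alternatives run. In sets 2 and 3 it was -0.05 ± 0.16 and 0.04 ± 0.16.

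AT1G29670 had signals of 1704, 1828 and 1739 in silwet of set 1 and of 977, 975 and 1224 in SA. The groups did not overlap, and the 12 arrays of sets 2 and 3 were all above the SA arrays of set 1. The difference was -0.73 ± 0.15 (SE; limma adjusted p = 0.00371). Measured against the 353 other bright probe sets it was -0.60 and not past the threshold.

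AT3G62550 had 1941, 1560.0 and 1383 in silwet of set 1 and 1115, 767 and 519.8 in SA. Its SA arrays again lay below all silwet arrays, with the highest and lowest SA value apart by more than the silwet values were. The difference was -1.06 ± 0.28 (SE; limma adjusted p = 0.0182). Dropping silwet replicate 1, silwet replicate 2 or SA replicate 3 from this set ended the call, at -0.93, -1.08 and -0.79.

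AT4G34950 had 1158, 1679.5 and 1497 in silwet of set 1 and 659, 1063 and 737 in SA. The groups did not overlap, though the highest SA array came close to the lowest silwet array. The difference was -0.82 ± 0.24 (SE; limma adjusted p = 0.0298). Dropping any of 4 arrays of this set (silwet replicates 2 and 3, SA replicates 1 and 3) ended the call, with values of -0.79 to -0.68, as did scaling to the 75th percentile, at -0.79.

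AT5G55450 went the other way. Its signals were 1309, 919 and 1669 in silwet of set 1 and 2495, 2287 and 2432 in SA, so every SA array lay above every silwet array. The difference was 0.92 ± 0.23 (SE; limma adjusted p = 0.0143), and it lost the call at 0.70 without silwet replicate 2 of set 1. In set 3 the order was turned, with 1666, 2239 and 2221 in silwet and 1445, 1139.6 and 970.0 in SA. There the difference of -0.78 ± 0.23 was not called by limma (unadjusted p = 0.00324), and in set 2 it was -0.03 ± 0.23.

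**Figure D2:**
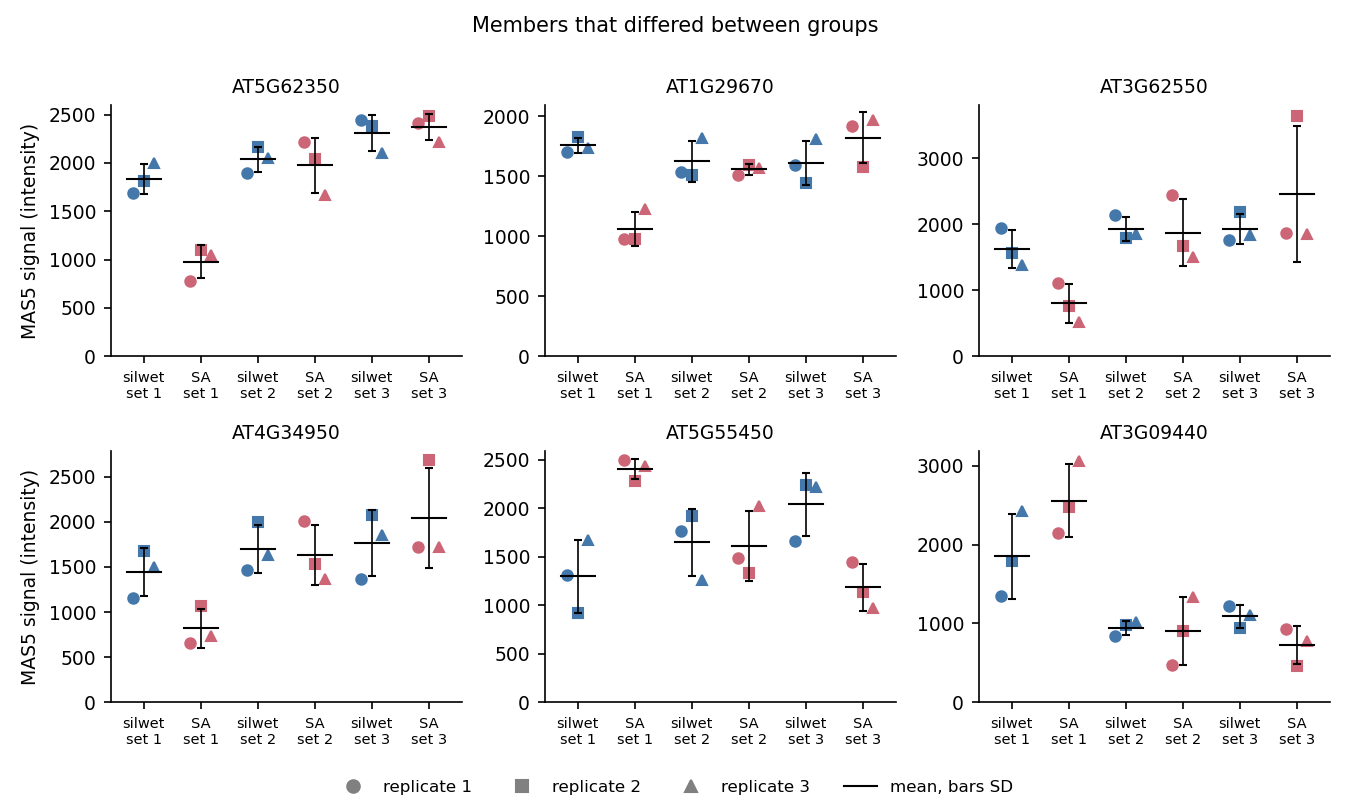
MAS5 signal on a linear intensity scale starting at 0, by group, for the 5 members called in set 1 and for AT3G09440. Points are arrays with the marker giving the replicate number, lines are means of 3 arrays and bars their SD. The SA arrays of set 1 lie apart in the first 5, low in 4 and high in AT5G55450.

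The block of 9 pairs added 12 members to the set 1 calls, all lower in SA, namely AT2G37220, AT3G22210, AT3G50685, AT1G11860, AT5G16010, AT1G74730, AT4G30650, AT2G45180, AT1G13930, AT1G54410 (HIRD11), AT5G20700 and AT1G78040. Their differences ran from -0.85 in AT3G22210 to -0.35 in AT5G20700. AT2G37220 had 1625, 1386 and 1773 in silwet of set 1 and 1016, 1000.0 and 1128 in SA, with no overlap. Its difference of -0.59 ± 0.20 had a limma adjusted p of 0.0558 without the block and 0.00986 with it.

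In sets 2 and 3 no member was called, where 0% of all tested probe sets were (limma). At an unadjusted p under 0.05 there were 0 members in set 2, beside 233 of the 13647 tested probe sets. In set 3 there were 2 members, beside 187. The median difference was -0.12 in set 2 with 89 members below 0, beside 0.01 over all tested probe sets. In set 3 it was 0.15 with 91 members above 0, beside -0.01. The direction in set 3 rested on SA replicate 2: without it the median was -0.03 and 29 members were above 0, and after quantile normalization it was 0.02 with 61 above 0. The members furthest from 0 in set 2 were AT2G37190 at -0.45 ± 0.21, AT1G01100 at -0.37 ± 0.25 and AT1G52300 at -0.35 ± 0.26. In set 3 they were AT5G55450, AT3G09440 at -0.62 ± 0.31 and AT1G54410 (HIRD11) at 0.51 ± 0.22.

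**Figure D3:**
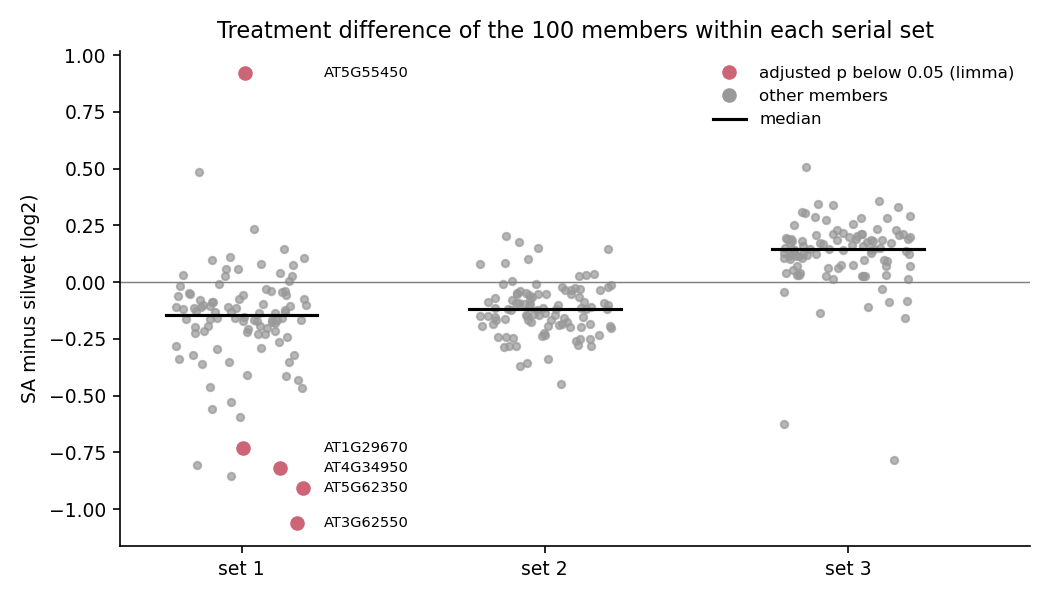
Difference of SA minus silwet in log2(signal + 16) for each of the 100 members within sets 1, 2 and 3. Coloured points were called by limma, grey points were not, and black lines are the medians of -0.14, -0.12 and 0.15.

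The SA difference itself differed between sets in 3 members, AT5G55450 (adjusted p = 0.0196), AT5G62350 (0.0322) and AT1G29670 (0.0379), by limma's F test with 2 degrees of freedom. That is beside 3.52% of all tested probe sets, so the share of members was near the background. With the 9 pairs as a block 14 members passed, beside 18.2%. From set 1, dropping silwet replicate 2 or SA replicate 1 brought the count to 0, beside 1.14% and 1.6% of all tested probe sets. It was 1 when any one of 7 other arrays was dropped, beside 1.3% to 4.3% of all tested probe sets. In set 1 these were silwet replicates 1 and 3 and SA replicate 3. In set 2 they were silwet replicate 1 and SA replicates 1 and 2, and in set 3 silwet replicate 2.

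Among the SA arrays, the serial sets differed in 22 members (limma F test), beside 28.9% of all tested probe sets. In 20 of the 22, SA of set 1 lay below the mean of SA in sets 2 and 3. AT3G09440 and AT5G55450 lay above it. The split depended on the scaling. After quantile normalization 21 members were called, 16 lower and 5 higher, beside 29.9% of all tested probe sets. Measured against the 353 other bright probe sets 16 were called, 10 lower and 6 higher, beside 24.4%. Over all members 91 were lower in SA of set 1 than in the other sets, with a median of -0.36. Quantile normalization gave 86 and -0.16, and measured against the other bright probe sets these were 59 and -0.03. All 3 SA arrays of set 1 were below all 6 SA arrays of sets 2 and 3 in 36 members (16.5% of all tested probe sets) and above in 3 (13.9%). After quantile normalization these counts were 21 (16.6%) and 5 (14%). Without SA replicate 1 of set 3, 52 members were called, beside 32.4% of all tested probe sets.

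By adjusted p the first was AT5G62350 (2.67e-05), followed by AT2G37220 (0.000233) and AT3G09440 (0.000454), all by limma's F test. AT1G13930 followed at 0.000616. This second brightest member had signals of 2141, 2139 and 1952 in SA of set 1, of 4914, 3079 and 3195 in set 2 and of 4001, 7059 and 4088 in set 3. All 6 values of the later sets were above all 3 of set 1. Next came AT3G62550, AT4G34950, AT1G29670 and AT5G20700, with adjusted p between 0.000716 and 0.00332 (limma).

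AT3G09440 had the widest spread of all members and was highest in set 1. In SA its signals were 2142, 2473 and 3055 in set 1, 472, 903 and 1332 in set 2 and 932, 465 and 779 in set 3. In silwet they were 1342, 1795 and 2419, then 846, 982 and 1014, then 1221, 935 and 1112. In both treatments every array of set 1 was above every array of sets 2 and 3. Its SA minus silwet difference within set 1 was 0.49 ± 0.31 (limma adjusted p = 0.345).

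Among the silwet arrays no member differed between sets (limma F test), beside 0.799% of all tested probe sets. An unadjusted p under 0.05 was found in 5 members, beside 1028 of all 13647 tested probe sets. With array weights 4 members were called, beside 5.95%. Silwet of set 1 lay below the mean of silwet in sets 2 and 3 in 93 members, with a median of -0.20. Quantile normalization gave 74 and -0.07, and measured against the other bright probe sets these were 71 and -0.06.

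By replicate number, 1 member was called, AT3G09630 (limma F test, adjusted p = 0.0232), beside 6.24% of all tested probe sets. Its replicate 1 signals were 854, 838 and 1115 in silwet of sets 1, 2 and 3 and 661, 1475 and 1115 in SA. Replicate 1 was the lowest of its 3 arrays in 5 of the 6 groups, and the highest in SA of set 2. Replicate 1 minus the mean of replicates 2 and 3 was -0.53 on the log2 scale. Dropping silwet replicate 1 from set 2, or SA replicate 1 from set 1, gave 0 calls, beside 3.17% and 3.52% of all tested probe sets. Dropping SA replicate 1 from set 2 gave 7, beside 9.06%, and dropping SA replicate 2 from set 3 gave 4, beside 8.86%. After quantile normalization there were 10, beside 7.8%. Over all members replicate 2 was above the mean of the other replicates in 84, with a median of 0.10, while replicate 1 was above in 27 and replicate 3 in 40. This was uneven over the sets. The members' median deviation on replicate 2 was 0.58 in SA and 0.25 in silwet of set 3. It was 0.13 in silwet of set 2 and -0.25 in SA of set 1. In silwet of set 1 and SA of set 2 it was lowest of the group, at -0.19 and -0.07. Like counts for other probe sets are not given here.

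The 18 arrays form a balanced layout, so each member's variance splits into shares that add up. Serial set took a median of 29.2% of a member's variance, treatment 0.667%, treatment by set 9.60%, replicate number 9.80% and the remainder 39.4%. Over all tested probe sets the medians were 20.6%, 2.42%, 11.9%, 12.2% and 38.5%. The 353 other bright probe sets had 29.9% for serial set and 0.674% for treatment, close to the members. After quantile normalization the members' share for serial set was 19.3% and that for treatment 3.28%. The remainder was the largest share in 55 members, serial set in 38, replicate number in 5, treatment by set in 2 and treatment in none. The shares were not corrected for degrees of freedom, of which the remainder has the most and treatment the fewest. Without any effect the remainder would be expected to be largest and treatment smallest, so that order alone shows no effect.

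**Figure D4:**
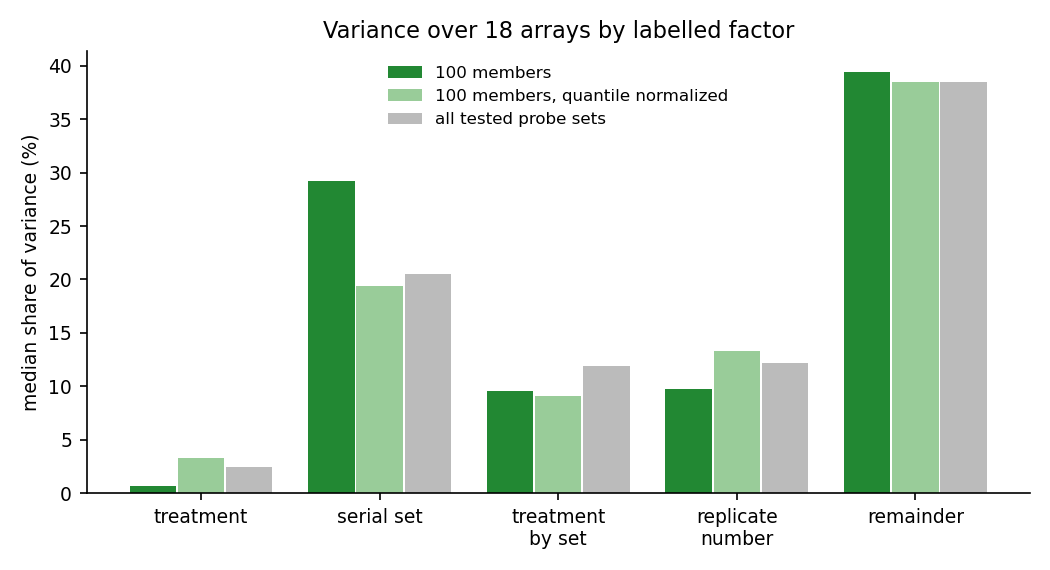
Median share of variance over 18 arrays, in percent, for each labelled factor. Dark bars are the 100 members, light bars the members after quantile normalization and grey bars all 13647 tested probe sets. The serial set share is 29.2% for members and 19.3% after quantile normalization.

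The members with the largest shares were as follows. AT3G30390 had 75.4% of its variance with serial set. Its SA signals were 998, 1029 and 982 in set 1, and ran from 1265 to 1664 in sets 2 and 3. AT5G55450 had 65.5% with treatment by set, AT3G09630 48.0% with replicate number and AT1G29670 13.2% with treatment.

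The SD of log2(signal + 16) over 18 arrays had a median of 0.273 among members, 0.310 over all tested probe sets and 0.292 among the other bright probe sets. After quantile normalization these were 0.198, 0.301 and 0.210, and without SA replicate 2 of set 3 the members' median was 0.231. The 6 most variable members were AT3G09440 (SD 0.753), AT3G62550 (0.611), AT4G29020 (0.551), AT3G50685 (0.534), AT3G22210 (0.526) and AT4G34950 (0.500). AT4G29020 had its lowest signals in SA of set 1, at 737, 907 and 725, and its highest, 3349, in SA replicate 2 of set 3.

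The 6 least variable were AT1G67430 (SD 0.131), AT3G60770 (0.148), AT5G14030 (0.154), AT1G18540 (0.171), AT2G01250 (0.174) and AT5G16130 (0.176). That order did not hold after quantile normalization, where none of the 6 was among the 6 least variable. Those were then AT2G25510 (0.057), AT1G77940 (0.066), AT4G01150 (0.069), AT5G20290 (0.076), AT5G15200 (0.077) and AT3G60245 (0.087). Of the 6 most variable, 5 were shared between these scalings. On the deposited scaling without SA replicate 2 of set 3, AT1G77940 was least variable at 0.119, beside 0.134 for AT1G67430. AT1G67430 ran from 1384 to 1870.1 with a median of 1711. It did not peak on SA replicate 2 of set 3, where it had 1724, and its 3 lowest arrays were the SA arrays of set 1 at 1384, 1460.1 and 1433.

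**Figure D5:**
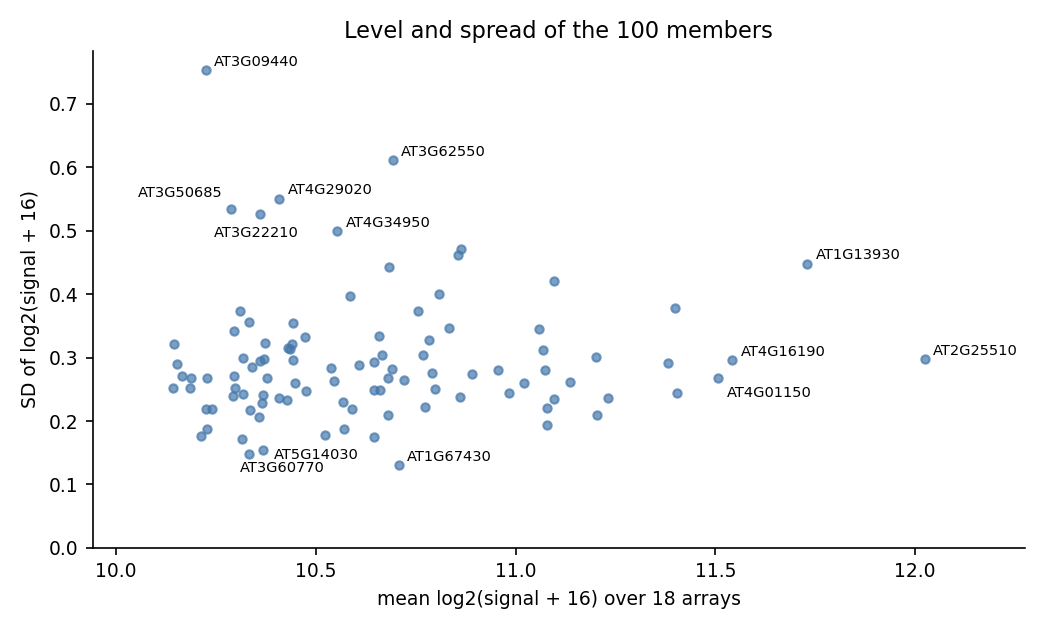
Mean and SD of log2(signal + 16) over 18 arrays, each point a member. The 6 most variable and 3 least variable members and the 4 brightest are named. AT3G09440 lies highest at an SD of 0.753 and AT1G67430 lowest at 0.131.

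Some members kept a nearly fixed ratio on every array, chosen here after all 4950 pairs had been seen. AT2G25510 and AT4G01150 (CURT1A) differed by 0.52 on the log2 scale with an SD of 0.069 over 18 arrays, the smallest of all pairs, where the median SD of a pair was 0.263. AT1G67430 and AT1G18540 had an SD of 0.078, and AT3G60770 and AT5G16130 of 0.075. The neighbouring loci AT2G27710 and AT2G27720 differed with an SD of 0.138. Once each array's median over the members was taken off, they correlated at 0.02, beside a median of -0.002 over all pairs. With each array's median over the members taken off, AT3G62550 and AT3G50685 correlated at 0.87, and AT5G21090 and AT3G50685 at -0.87, as descriptions over 18 arrays of shared origin.

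The 5 members described in RefSeq varied as follows. CURT1A (AT4G01150) ran from 2318 to 5070.2 with a median of 2857, and was lowest in SA replicate 1 of set 1. CURT1C (AT1G52220) ran from 998 to 2313 with a median of 1279. Both peaked on SA replicate 2 of set 3 and had their minimum on an SA array of set 1. The geranylgeranyl reductase AT1G74470 ran from 1076 to 2748. It was lowest in SA replicate 1 of set 1, and highest in silwet replicate 2 of set 3. HIRD11 (AT1G54410) ran from 1326 to 3516, and NCL (AT1G53210) from 798 to 1522. None of the 5 was called for SA minus silwet in any set without the block, while the sets differed in SA in AT1G54410 (limma adjusted p = 0.0236) and AT1G74470 (0.0497). Both calls were lost after quantile normalization (limma adjusted p = 0.172 and 0.278) and against the other bright probe sets (0.235 and 0.484), and over 28 alternatives AT1G54410 lost it in 5 and AT1G74470 in 19.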

How the data were processed

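Total RNA of 18 samples was measured on ATH1 arrays. The values the authors deposited are intensity on a linear scale, made with MAS5 per the submitters' processing notes (no version named), with the same trimmed mean on every array. The sources used here give no other step and no genome build. Probe sets were named from the platform table, matched by gene identifier to the RefSeq table of TAIR10.1, whose coordinates were not used. There were 13513 probe sets with 1 gene, 503 with more than 1 and 8730 of Arabidopsis without a name here, among 22810.

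Signals were taken as log2(signal + 16), which understates changes of dim probe sets. The upper 60% of Arabidopsis probe sets by mean were tested (13647), and all 100 members passed this filter, which their choice by brightness fixes. limma 3.58.1 in R 4.3.3 (lmFit, eBayes with a mean-variance trend) gave SA minus silwet pooled without a block, and in a model of 6 groups the difference within each set, the F tests and, with replicate number added, its F test. P-values are two-sided and adjusted by Benjamini-Hochberg over all tested probe sets, with a threshold of 0.05. Both the fits and the variance shares were run on simulated data as a check of the code. The simulated noise was independent between arrays, without the shared shifts seen here, so error rates in these data were not checked. Arrays give no read depth; their number limits the precision.

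The members, the marker lists and the tests were chosen with earlier results of these data known. Named were the 12 brightest members, those called in a contrast with 1 sign in all 3 replicate numbers (3 with the largest difference where none was called), up to 8 per F test, the 6 most and 6 least variable, the largest variance share per factor and the 3 on either side of the limit. AT1G67430 and others are also named for pairs chosen after their values were seen. Functional classes by RefSeq description, promoter motifs and protein features had been planned and were not analysed here, since the tables used hold no descriptions or sequences.

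Within a set, the SA and silwet arrays of 1 replicate number shared deviations from their group means, with correlations of 0.129 to 0.770 over 9 pairs, all above 0.1. The pairs were therefore also fitted as a block. The counts with and without the block were known when this was checked, and the labels do not say what a number shares. The highest correlation between any 2 arrays was 0.986, so no 2 arrays held identical values. Alternatives were the pseudocount, the filter, quantile and 75th percentile scaling, array weights, no trend, no ambiguous probe sets, blocks, averaging, and leaving out each array.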

Additional observations from a re-analysis of the deposited data

Results flagged for a closer look

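In 3 members the SA minus silwet difference was not the same in the 3 serial sets by limma's F test. The same test called 3.52% of all tested probe sets, so the share of members was near the background. AT5G55450 had an adjusted p of 0.0196, with 0.92 in set 1, -0.03 in set 2 and -0.78 in set 3 on the log2 scale. AT5G62350 had an adjusted p of 0.0322, with -0.90, -0.05 and 0.04. AT1G29670 had an adjusted p of 0.0379, with -0.73, -0.05 and 0.17. Over the alternatives run, the test stayed past the threshold in 26 of 29 for AT5G55450, 16 of 29 for AT5G62350 and 14 of 29 for AT1G29670 (limma).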

How the results depend on the processing

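Counts of members called were compared over the alternatives run. None of the 5 set 1 calls changed direction, while the F tests carry no sign and could not show such a change. Percentages in brackets are the shares of all tested probe sets called in the same fit. In set 1 the count of 5 (12.8%) was 12 (13.6%) after quantile normalization and 11 (21.1%) with array weights. It was 17 (27.9%) with the 9 pairs as replicate block and 9 (17.8%) with replicate number as replicate block. As single arrays were left out, it ran from 2 (7.38%) to 11 (15.6%). For the difference between sets, the count of 3 (3.52%) was 1 without the filter (share not given) and 5 (13%) with array weights. It was 14 (18.2%) with the 9 pairs as replicate block and 1 (2.57%) when centred on the other bright probe sets. Over single arrays left out it ran from 0 (1.14% or 1.6%) to 4 (4.86%). The count of 22 (28.9%) for sets in SA was 51 (43.6%) with array weights, and 16 (19.9%) to 52 (32.4%) over arrays left out. That of 0 (0.799%) for sets in silwet was 4 (5.95%) with array weights. The count of 1 (6.24%) by replicate number was 10 (7.8%) after quantile normalization and 16 (24.5%) with array weights. It was 2 (2.37%) when centred on the other bright probe sets. Over arrays left out it ran from 0 (3.17% or 3.52%) to 7 (9.06%). Pooled and in sets 2 and 3 the count stayed 0 in every alternative run. With fewer arrays fewer degrees of freedom remain; beyond that the cause was not tested. Of the 22 members called for sets in SA, 16 remained after quantile normalization. Centring on other bright probe sets, and leaving out SA replicate 2 of set 3 for the choice and the spread of members, were chosen after seeing the data. Limits: 3 arrays a group, no known tissue, brightness fixed by the choice of members, and a single array, SA replicate 2 of set 3, that carried the direction in set 3.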
